A study of Homo sapiens with 8 samples.

Results

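The expressed members of the human ZNF zinc finger family were examined in PANC-1 cells treated with EB or with its vehicle. The members were chosen by their measured level in the vehicle libraries. A gene was included if it was protein coding, its symbol was ZNF followed by a digit, and its mean over the 4 DMSO libraries was at least 5 TPM, a unit that gives the share of a library's transcripts after correction for transcript length and has the same total in every library. Of 514 protein-coding ZNF genes in a table of 20263 genes, 231 met this rule, and all 231 passed the filter on low values described next to the test. A further 33 ZNF genes were listed at 0 in every library.

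PANC-1 cells are an established line from a human pancreatic duct carcinoma. One group received 10 μM EB, that is eupalinolide B, a plant sesquiterpene lactone, for 24 h, and the other received DMSO, with 4 libraries of mRNA in each. All cells were of this 1 line, and the study's methods describe the 4 samples of a group as biological replicates, so the p-values measure the spread between samples of 1 cell line. The table heads its columns C or H, and C was read here as DMSO and H as EB.

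ZNF proteins carry zinc fingers, mostly of the C2H2 kind, in which a pair of cysteines and a pair of histidines hold a zinc ion, and arrays of such fingers read DNA sequence. Many carry a KRAB box, which recruits the corepressor TRIM28 and, through it, the histone methyltransferase SETDB1, and they silence transposable elements and other targets. Many of the genes arose by tandem duplication and lie in clusters, above all on chromosome 19. Others have no KRAB box, and among them are activators, corepressors, RNA-binding or spindle proteins, and proteins of ribosome assembly.

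The line's labels were checked on defining markers. The keratins KRT8, KRT18 and KRT19, SOX9 and VIM were expressed. Their means differed between the groups, with 755 TPM with DMSO and 1710 TPM with EB for KRT8, 399 and 1119 TPM for KRT18, 163 and 569 TPM for KRT19, 149 and 57.1 TPM for SOX9 and 6162 and 7108 TPM for VIM, and the part of such a shift in the members' changes was not tested. By contrast, the epithelial markers EPCAM, CDH1 and KRT7 had means below 0.5 TPM in both groups. PTPRC, PECAM1, DCN, PRSS1, CPA1, INS and GCG, which mark leukocytes, endothelium, fibroblasts, acinar cells and islet cells, were listed at 0 in all 8 libraries. COL1A1, another fibroblast marker, was not at 0, with means of 1.87 TPM with DMSO and 0.896 TPM with EB. The share of TPM in the 13 genes of the mitochondrial genome was 24.5% ± 9.83 in DMSO libraries and 14.7% ± 3.96 in EB libraries (SD, n = 4), with 39.0% in DMSO replicate 4. The members' median TPM was 11.45, 11.76, 10.97 and 8.23 in DMSO replicates 1 to 4 and 8.62, 8.65, 7.68 and 7.88 in the EB libraries. DMSO replicate 4 thus stood below the other DMSO libraries, inside the range of the EB libraries, and the main counts are also given without it. The counts without the genes of the mitochondrial genome are given below. Beyond that, the part of the mitochondrial share in the results was not tested. The files hold no read counts, so the depth of each library, and with it the counting error, is unknown.

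With DMSO, most members were expressed at low levels. Their means ran from 5.03 to 164 TPM with a median of 10.7 TPM, and 55 members reached 20 TPM. All members together took 0.408% of the TPM with DMSO and 0.356% with EB. Just inside the minimum lay ZNF23 (5.03 ± 2.33 TPM), ZNF500 (5.04 ± 1.71 TPM) and ZNF287 (5.33 ± 0.58 TPM), and just outside lay ZNF575 (4.94 ± 0.36 TPM), ZNF485 (4.94 ± 0.99 TPM) and ZNF616 (4.92 ± 0.32 TPM; all SD, n = 4). The corresponding EB means were 6.55, 3.87 and 4.50 TPM for the first 3 and 2.62, 4.59 and 5.17 TPM for the others.

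More members were called lower than higher with EB, and most were not called. The comparison was made with limma on log2(TPM + 1) for 11725 genes that reached 1 TPM in 4 or more libraries, and a gene was called when its Benjamini-Hochberg adjusted p was under 0.05. Fold changes are on this log2 scale, which understates the change of low genes. Of the 231 members, 80 (34.6%) were called lower, against 25.1% of all genes tested, and 15 (6.49%) were called higher, against 15.2% of all genes tested. The other 136 were not called. All 4 EB libraries lay below all 4 DMSO libraries for 65 members, an arrangement found for 20.3% of all genes, and above them for 19 members, found for 16.6% of all genes. The study's thresholds were read here as an unadjusted p under 0.05 together with a log2 fold change beyond 1.5 in either direction. They were passed by 5 members downward, against 1.54% of all genes, and by 0 upward, against 0.537% of all genes. Over all genes, 181 passed downward and 63 upward. The study reports the opposite balance, with more genes up than down. These shares therefore describe this fit and not the study's own gene lists, and the reason for the difference was not tested. The median log2 fold change was -0.31 over the members (quartiles -0.69 and 0.01) and -0.11 over all genes. A negative value was found for 171 of the 231 members and for 6723 of the 11725 genes. In bulk libraries a loss of cells that express a gene and a loss of RNA per cell cannot be told apart.

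**Figure D1:**
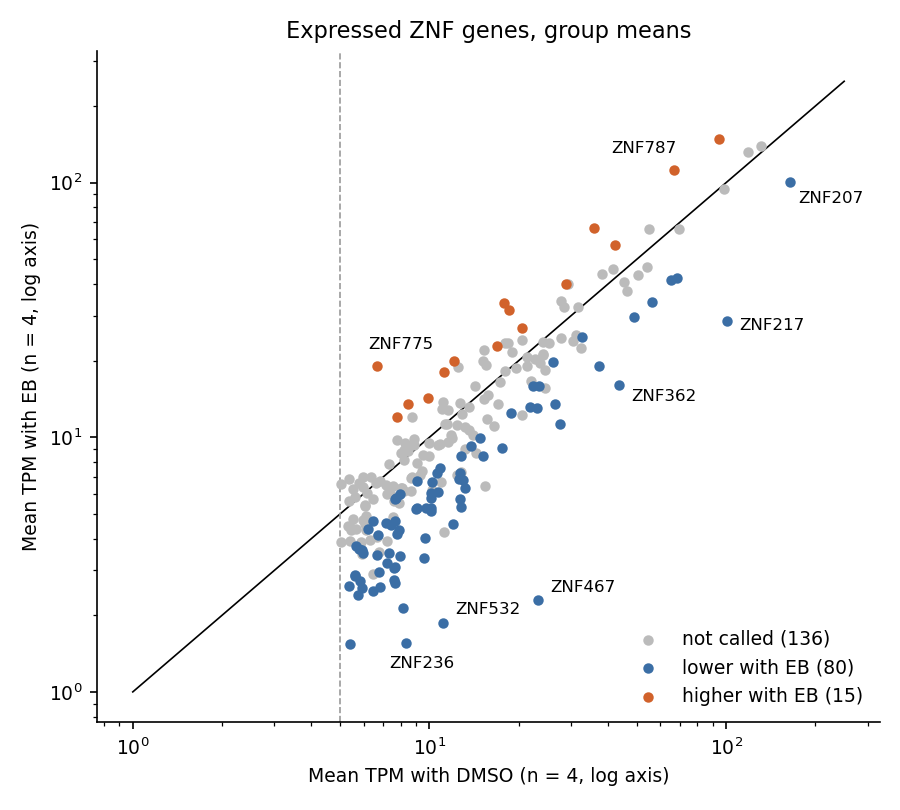
Mean TPM of each of the 231 expressed ZNF genes with DMSO (horizontal, log axis, n = 4) and with EB (vertical, log axis, n = 4). Blue points are the 80 genes called lower, orange points the 15 called higher and grey points the 136 not called; the solid line marks equal levels and the dashed line the minimum of 5 TPM that chose the genes, and most points lie below the line of equal levels.

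These counts are a description, because the DMSO values that chose the members also enter the fold change. When ZNF genes were chosen by a mean of at least 5 TPM with EB instead, 43 of 186 (23.1%) were called lower and 19 (10.2%) higher, with a median log2 fold change of -0.15. Non-ZNF genes chosen in the same way had 20.4% called lower, 18.1% higher and a median of -0.02. Chosen by the mean over all 8 libraries, 65 of 212 ZNF genes (30.7%) were called lower and 17 (8.02%) higher, against 23.0% and 17.0% of other genes, with medians of -0.27 and -0.06. Without any minimum on the level beyond the filter, 126 of the 403 ZNF genes tested (31.3%) were called lower and 21 (5.21%) higher, with a median of -0.29. The larger number of falls than rises was thus present under each choice, and its size moved with the choice.

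The scaling of the libraries moved the counts as well. The median over all genes was -0.11 as deposited, -0.01 after median-ratio scaling, 0.02 after quantile normalization and -0.28 when the genes of the mitochondrial genome were removed and the TPM rescaled. Median-ratio scaling gave 80 members lower (34.6%, against 26.3% of all genes) and 29 higher (12.6%, against 25.9%), with a median of -0.21. Quantile normalization gave 54 lower and 40 higher, with a median of -0.087, which were 23.4% and 17.3% of the members against 23.5% and 23.8% of all genes. The nuclear genes alone gave 117 lower (50.6%, against 41.4% of all genes) and 10 higher (4.33%, against 12.1%), and the members' median was -0.49. When DMSO replicate 4 was left out, there were 110 members lower and 14 higher, and without EB replicate 3 there were 51 lower and 10 higher. The lower calls over all genes moved in the same direction, from 25.1% to 37.0% without DMSO replicate 4 and to 18% without EB replicate 3, where the higher calls were 15.6% and 10.8%. Past the study's thresholds, 8 members (3.46%, against 2.54% of all genes) were lower without DMSO replicate 4 in place of 5, and 1 was higher without DMSO replicate 1 or replicate 3 in place of 0.

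The 4 largest falls were in ZNF genes without a KRAB box pattern. ZNF467 (ENSG00000181444; chromosome 7, 149764182 to 149773588 on hg38, minus strand; 12 fingers) is known from its mouse counterpart as a regulator of the choice between bone and fat cell fates. It had 25.1, 26.2, 20.2 and 21.3 TPM in the DMSO libraries and 1.95, 1.85, 2.64 and 2.72 TPM in the EB libraries. The groups lay far apart, with the highest EB library at 2.72 TPM and the lowest DMSO library at 20.2 TPM. Its log2 fold change was -2.88 ± 0.15 (SE; limma adjusted p = 8.1e-06), and it was -2.82 after a joint trend on length and GC content had been removed from each library.

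ZNF532 (chromosome 18, 58862600 to 58986480; 10 fingers) had 12.4, 8.91, 14.7 and 8.51 TPM with DMSO and 2.10, 2.06, 1.73 and 1.59 TPM with EB, a log2 fold change of -2.05 ± 0.18 (SE; limma adjusted p = 7.2e-05). ZNF236 (chromosome 18, 76822557 to 76972901), with 30 fingers among the longest arrays of the family, had 9.08, 9.01, 10.0 and 5.29 TPM with DMSO and 1.51, 2.56, 1.17 and 0.968 TPM with EB. The groups did not overlap for either gene, and the log2 fold change of ZNF236 was -1.88 ± 0.23 (SE; limma adjusted p = 0.00039).

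ZNF217 (ENSG00000171940; chromosome 20, 53567071 to 53609907, minus strand; 8 fingers) is a transcriptional corepressor and an oncogene that is amplified in breast and other carcinomas. It was the fourth most abundant member with DMSO, at 97.7, 112, 113 and 79.5 TPM. With EB it had 28.8, 36.2, 23.9 and 25.1 TPM, all below the lowest DMSO library. The log2 fold change was -1.79 ± 0.17 (SE; limma adjusted p = 0.00012).

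ZNF33B (chromosome 10, 42574185 to 42638570, minus strand; 16 fingers) was the KRAB gene with the largest called fall. It had 8.25, 8.56, 7.57 and 8.13 TPM with DMSO and 2.62, 2.50, 2.18 and 1.24 TPM with EB. The DMSO libraries were close to each other, and the log2 fold change was -1.56 ± 0.16 (SE; limma adjusted p = 0.00019). These 5 genes were the members past the study's fold threshold. ZNF532, ZNF236, ZNF217 and ZNF33B had transcripts of 6556, 10157, 5790 and 5982 nucleotides. With the length and GC trend removed, their log2 fold changes were -1.62, -1.33, -1.39 and -1.17, and all were still called. Only ZNF467 and ZNF532 then stayed past the fold threshold.

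A further 7 genes completed the 12 largest called falls. ZNF362 had 40.7, 50.8, 45.8 and 37.2 TPM with DMSO and 15.3, 19.6, 13.4 and 16.03 TPM with EB (log2 fold change -1.39). ZNF449, a gene with a SCAN box, which is a dimerization domain, had 4.81, 5.75, 5.18 and 5.83 TPM with DMSO and 1.48, 2.32, 1.15 and 1.196 TPM with EB (log2 fold change -1.35). ZNF160, a KRAB gene of chromosome 19, had 10.4, 15.95, 12.97 and 8.55 TPM with DMSO and 5.31, 1.74, 4.27 and 6.93 TPM with EB (log2 fold change -1.29). The groups did not overlap in these genes, though ZNF160 varied widely within each group.

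ZNF440 and ZNF510 overlapped between groups although limma called them. ZNF440 had 8.35, 8.65, 8.38 and 5.23 TPM with DMSO and 0.922, 6.21, 2.19 and 1.34 TPM with EB, where EB replicate 2 lay above DMSO replicate 4 (log2 fold change -1.42, limma adjusted p = 0.013). ZNF510 had 7.65, 7.58, 4.63 and 6.04 TPM with DMSO and 4.83, 2.24, 1.36 and 1.53 TPM with EB (log2 fold change -1.18, limma adjusted p = 0.0089). The exact two-sided permutation test over the 70 assignments of the libraries gave p = 0.0571 for both genes, where the smallest p that it can give is 0.0286.

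ZNF862 and ZNF512B were called lower, with DMSO replicate 4 close to the EB libraries. ZNF862 had 11.3, 11.4, 10.97 and 4.64 TPM with DMSO and 3.96, 4.11, 2.97 and 2.35 TPM with EB (log2 fold change -1.23). ZNF512B had 33.1, 31.2, 32.6 and 13.5 TPM with DMSO and 13.2, 12.1, 10.5 and 9.18 TPM with EB (log2 fold change -1.15). Without DMSO replicate 4 the log2 fold changes were -1.51 and -1.45. Of the stretches of 75 bases in the ZNF862 transcript, 30.3% also occur in another annotated gene, so its TPM could have been split in counting.

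The rises were fewer and smaller. ZNF775 (ENSG00000196456; chromosome 7, 150368790 to 150398630, plus strand; 11 fingers) had the largest, with 8.11, 5.397, 8.95 and 4.16 TPM in the DMSO libraries and 18.8, 19.8, 19.8 and 18.02 TPM in the EB libraries. The EB libraries were close to each other, and all lay above the highest DMSO library by more than the DMSO libraries differed among themselves. The log2 fold change was 1.44 ± 0.20 (SE; limma adjusted p = 0.00078), and 1.42 after removal of the length and GC trend.

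ZNF622 and ZNF593, whose products act in the assembly of the large ribosomal subunit, both rose. ZNF622 had 37.4, 36.7, 39.6 and 30.2 TPM with DMSO and 66.9, 67.6, 69.5 and 61.0 TPM with EB (log2 fold change 0.87 ± 0.12 SE, limma adjusted p = 0.00088). ZNF593 had 106, 103, 93.9 and 76.2 TPM with DMSO and 151, 140.0, 161 and 142 TPM with EB (log2 fold change 0.65 ± 0.14 SE, limma adjusted p = 0.0052). The groups did not overlap in either gene. For ZNF593, 36.0% of the 75-base stretches also occur in the gene ZNF593OS on the opposite strand, and its log2 fold change was 0.28 after the length and GC trend had been removed.

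The other 5 of the 8 largest rises were ZNF771, ZNF787, ZNF410, ZNF544 and ZNF408, with log2 fold changes of 0.88, 0.77, 0.75, 0.67 and 0.66. ZNF771 had 18.8, 16.7, 21.9 and 13.9 TPM with DMSO and 36.8, 28.1, 38.3 and 30.8 TPM with EB. ZNF787 had 82.3, 70.3, 70.2 and 44.3 TPM with DMSO and 117, 109, 117 and 105 TPM with EB. The EB values of both genes were all above the DMSO values.

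ZNF410, an activator of the NuRD helicase gene CHD4, had 22.1, 19.5, 17.4 and 15.2 TPM with DMSO and 31.6, 31.8, 35.1 and 28.5 TPM with EB. Its log2 fold change carries a doubt, since 89.4% of its 75-base stretches also occur in other annotated transcripts, mostly a readthrough gene. CHD4 itself, named here after its values were seen, had 112 ± 20.5 TPM with DMSO and 124 ± 15.3 TPM with EB (SD, n = 4) and was not called. ZNF544, a KRAB gene of chromosome 19, had 12.7, 11.99, 13.6 and 10.1 TPM with DMSO and 23.9, 16.5, 20.9 and 18.5 TPM with EB. ZNF408, known from inherited disease of the retinal vessels, had 13.9, 11.97, 11.3 and 7.73 TPM with DMSO and 18.5, 17.98, 20.3 and 15.1 TPM with EB. Neither of these last 2 overlapped between the groups.

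**Figure D2:**
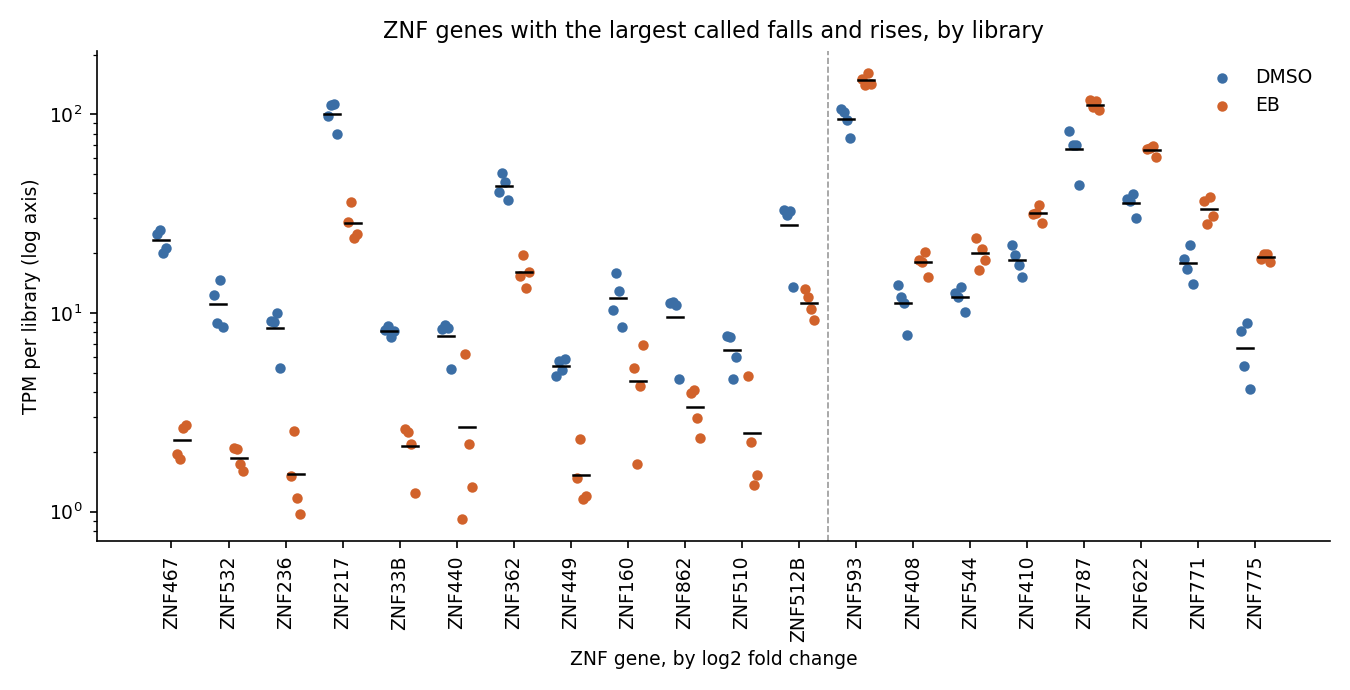
TPM per library (vertical, log axis) of the 12 genes with the largest called falls and, right of the dashed line, the 8 with the largest called rises, ordered by log2 fold change. Each point is 1 library (blue DMSO, orange EB, 4 each) and each bar a group mean; the groups overlap only in ZNF440 and ZNF510.

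The sequences upstream of 4 of these genes are shown because they belong to the largest fall, the most abundant gene among the 12 largest falls, the largest called fall of a KRAB gene and the largest rise. Each is the 250 bases before the RefSeq gene start (GRCh38.p14), 5′ to 3′ on the gene's strand. They lie at chr7:149773589-149773838 (minus strand), chr20:53593840-53594089 (minus strand), chr10:42638571-42638820 (minus strand) and chr7:150379080-150379329 (plus strand), in the order printed. Capitals mark matches, on either strand, to the motifs searched, which were CCAAT (bound by NF-Y), TGACTCA (AP-1) and TGACNNNGC (antioxidant response element).
ZNF467: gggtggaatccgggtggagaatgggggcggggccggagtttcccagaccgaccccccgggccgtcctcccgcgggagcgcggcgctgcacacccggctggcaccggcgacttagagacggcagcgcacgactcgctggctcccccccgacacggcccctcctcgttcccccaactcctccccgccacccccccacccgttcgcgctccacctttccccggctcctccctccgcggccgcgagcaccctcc
ZNF217: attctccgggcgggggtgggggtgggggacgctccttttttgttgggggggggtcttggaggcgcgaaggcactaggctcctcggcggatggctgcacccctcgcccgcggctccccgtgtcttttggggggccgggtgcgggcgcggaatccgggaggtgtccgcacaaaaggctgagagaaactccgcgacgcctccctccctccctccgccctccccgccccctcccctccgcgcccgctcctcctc
ZNF33B: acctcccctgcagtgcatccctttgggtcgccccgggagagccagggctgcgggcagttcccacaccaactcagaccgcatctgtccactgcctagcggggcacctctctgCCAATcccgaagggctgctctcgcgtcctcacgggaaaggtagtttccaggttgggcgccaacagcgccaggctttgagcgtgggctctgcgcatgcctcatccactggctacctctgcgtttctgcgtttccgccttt
ZNF775: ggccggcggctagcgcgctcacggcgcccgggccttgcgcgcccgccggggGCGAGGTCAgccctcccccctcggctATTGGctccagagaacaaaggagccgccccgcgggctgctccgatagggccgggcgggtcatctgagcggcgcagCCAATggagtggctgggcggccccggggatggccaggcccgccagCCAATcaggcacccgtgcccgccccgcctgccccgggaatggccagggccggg

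The upstream sequences of ZNF467 and ZNF217 held none of these letters, that of ZNF33B held 1 CCAAT and that of ZNF775 held 3 CCAAT and 1 TGACNNNGC. A match is a description of the letters and not a bound site. RefSeq held an upstream sequence for 199 of the 231 members. CCAAT was present in 42.7% of them, in 52.1% of the 96 with a KRAB pattern, in 35.4% of the 9488 tested genes with a sequence and in 33.0% of all 27305 sequences. It was present in 39.1% of the 69 members called lower and in 40.0% of the 15 called higher. The AP-1 letters were in 3.52% of the members and 2.28% of the tested genes, and the antioxidant letters in 12.1% and 12%. Among all 27305 sequences these shares were 4.16% and 11%. The antioxidant letters were in 6 of the 69 members called lower (8.70%) and 4 of the 15 called higher (26.7%), and the AP-1 letters in 2 and 1, which are small numbers and carry no test. Members called lower and called higher had a median GC content of 62.0% and 69.2% in this window, and all tested genes had 65.6%.

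Of the 5 members with the highest DMSO means, ZNF207 and ZNF217 were called lower and ZNF580, ZNF768 and ZNF358 were not called. ZNF207, also called BuGZ, binds the checkpoint protein BUB3 at kinetochores and had the highest DMSO mean. It had 169, 212, 143 and 133 TPM with DMSO and 90.5, 126, 69.5 and 117 TPM with EB. No EB library reached the lowest DMSO library, although both groups were wide. Its log2 fold change was -0.72 ± 0.21 (SE; limma adjusted p = 0.025). The call was lost without DMSO replicate 1 or 2 or EB replicate 1 or 3 (adjusted p 0.054 to 0.071), and after removal of the length and GC trend, where the value was -0.16.

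ZNF580 had 116, 142, 134 and 132 TPM with DMSO and 126, 135, 140.0 and 158 TPM with EB, with overlapping groups. ZNF768 had 120.4, 124, 126 and 103 TPM with DMSO and 131, 132, 134 and 132 TPM with EB. All its EB libraries lay above the DMSO libraries, but by a log2 fold change of 0.16 ± 0.11 (SE) with a limma adjusted p of 0.27. ZNF358 had 104, 117, 116 and 57.2 TPM with DMSO and 85.8, 97.4, 88.5 and 106 TPM with EB, a log2 fold change of -0.01 that was -0.25 without DMSO replicate 4 and 0.10 after median-ratio scaling.

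The change with EB followed transcript length, in the members as in other genes. The canonical transcripts of the members had a median of 3558 nucleotides, against 3217 for all genes tested. Spearman's correlation of the log2 fold change with length was -0.48 across the 231 members and -0.47 across 11295 non-ZNF genes, and genes are not independent replicates. All genes tested were then divided by length into 5 classes of equal size.

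In the shortest class (207 to 1740 nucleotides), 5 of 13 members were called higher and 1 lower, with a median log2 fold change of 0.44 against 0.32 for other genes. In the second class (1741 to 2669 nucleotides), the medians were 0.05 over 46 members and 0.08 over other genes. In the third class (2670 to 3827 nucleotides), they were -0.27 over 62 members and -0.12 over other genes, with 22.6% and 22.2% called lower. In the fourth class (3828 to 5580 nucleotides), 34 of 61 members (55.7%) were called lower and 0 higher, against 34.5% and 6.07% of other genes, with medians of -0.55 and -0.30. In the longest class (5582 nucleotides and more), 26 of 49 members (53.1%) were called lower and 2 higher, against 45.9% and 3.52% of other genes, with medians of -0.59 and -0.49. Members of the 3 longer classes thus had lower medians than other genes of like length. In the 2 shorter classes the medians lay close together or the members' median was higher. The other genes had no DMSO minimum, so these gaps include the effect of choosing the members. All ZNF genes tested, without that minimum, had medians of 0.24, 0.07, -0.22, -0.49 and -0.48 from the shortest class to the longest. The other genes had 0.32, 0.08, -0.12, -0.30 and -0.49. In the longest class the lower median was thus not found without the minimum, nor the higher median in the shortest.

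Single members show both the trend and departures from it. The shortest were ZNF593 (638 nucleotides), ZNF511 (1084) and ZNF688 (1106), with log2 fold changes of 0.65, 0.44 and 0.46. ZNF511 had 44.3, 43.3, 48.8 and 32.2 TPM with DMSO and 58.3, 59.1, 57.8 and 51.9 TPM with EB. It was called higher (limma adjusted p = 0.037), but the call was lost on leaving out any library other than DMSO replicate 3 or 4, and 42.9% of its 75-base stretches occur in the readthrough gene ZNF511-PRAP1. ZNF688 had 12.4, 9.50, 6.52 and 6.39 TPM with DMSO and 12.2, 14.2, 11.2 and 10.6 TPM with EB and was not called (limma adjusted p = 0.092).

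The longest were ZNF207 (13740 nucleotides), ZNF562 (12639) and ZNF141 (12601), with log2 fold changes of -0.72, -0.15 and -0.59. ZNF141 had 6.68, 5.16, 6.50 and 5.27 TPM with DMSO and 2.98, 3.06, 3.93 and 4.45 TPM with EB and was called lower (limma adjusted p = 0.012). ZNF562 had 5.81, 7.29, 6.24 and 4.91 TPM with DMSO and 4.49, 6.89, 4.56 and 5.53 TPM with EB and was not called (limma adjusted p = 0.47). After removal of the length and GC trend ZNF141 stood at -0.03 and was no longer called, and ZNF562 stood at 0.42 and was called higher (limma adjusted p = 0.014). ZNF467, with the largest fall, had a transcript of 2843 nucleotides, shorter than the members' median.

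**Figure D3:**
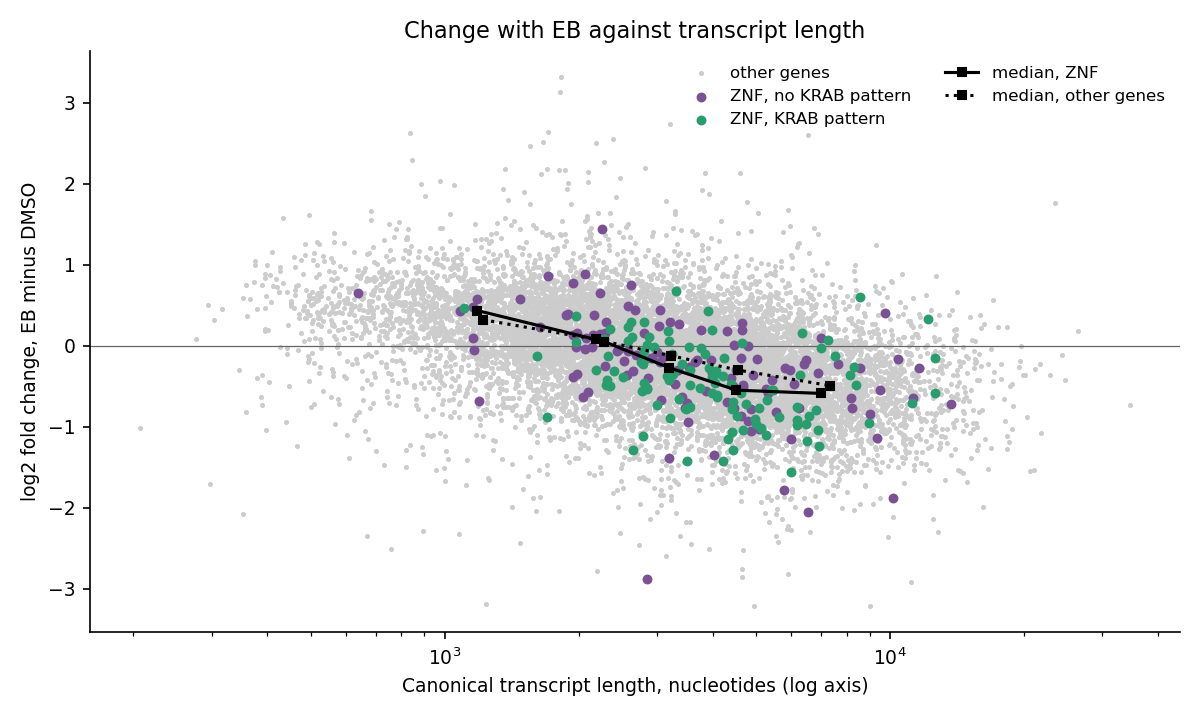
Log2 fold change (EB minus DMSO, vertical) against the length of the canonical transcript in nucleotides (horizontal, log axis) for non-ZNF genes (grey) and the 231 expressed ZNF genes with a KRAB pattern (green) or without (purple). Squares are medians within the 5 classes of length, placed at the group's median length, joined by a solid line for ZNF genes and a dotted line for other genes; both lines fall from above 0 in the shortest class to -0.59 and -0.49 in the longest.

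Base composition moved with the change too. The median GC content of the transcripts was 45.5% in members and 49.4% in all genes, and Spearman's correlation with the log2 fold change was 0.33 across members and 0.13 across other genes. Among 5 equal classes by GC content, in the poorest (30.7% to 40.9%), 29 of 52 members (55.8%) were called lower, against 31.1% of other genes. In the richest (59.3% to 76.0%), 9 of 46 members (19.6%) were called lower and 6 higher, against 19.1% and 17.1% of other genes. When the joint trend on length and GC content was removed from each library, 56 members (24.2%) were called lower, against 21.8% of all genes, and 26 (11.3%) higher, against 24.1%. The median over members was then -0.12 and over all genes 0.02. How the trend on length arose was not tested.

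Members on chromosome 19 and members elsewhere had like medians over all lengths, but not in the shortest or the longest class. Of the 231, 82 lay on chromosome 19, followed by 24 on chromosome 7 and 21 on chromosome 16. On chromosome 19, 25 of 82 members (30.5%) were called lower and 4 (4.88%) higher, with a median log2 fold change of -0.33. Elsewhere, 55 of 149 (36.9%) were called lower and 11 (7.38%) higher, with a median of -0.31. In the longest class of transcripts, 4 of 12 members on chromosome 19 (33.3%) and 22 of 37 elsewhere (59.5%) were called lower, with medians of -0.31 and -0.64. In the shortest class, 0 of 6 members on chromosome 19 and 5 of 7 elsewhere (71.4%) were called higher. Their medians were 0.02 and 0.48, and 37.1% of other genes of that class were called higher. Of the other 746 tested genes of chromosome 19, 17.6% were called lower and 20.6% higher, with a median of 0.04. Those neighbours had shorter transcripts (median 2232 nucleotides, against 3547 in chromosome 19 members) and a higher GC content (61.3% against 43.9%). With the length and GC trend removed, the medians were -0.13 for members of chromosome 19, -0.09 for members elsewhere and 0.02 for the other genes of chromosome 19. These differences between groups of genes are descriptions and carry no test.

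Along chromosome 19, ZNF genes were grouped into 16 clusters, split where neighbouring ZNF genes lie more than 1 Mb apart on hg38. Their counts are read against the 30.5% of all chromosome 19 members and 25.1% of all genes called lower. The cluster at 55476617 to 58481230, towards the end of the long arm, held 29 members, of which 10 (34.5%) were called lower and 2 higher. The cluster at 51571283 to 53580269 held 11 members, of which 6 (54.5%) were called lower and 0 higher, and contained ZNF160. In the cluster at 19668796 to 24129968, which is rich in primate-specific genes, 3 of 6 members were called lower, among them ZNF91, a repressor of SVA retrotransposons, with a log2 fold change of -0.55. In the clusters at 7069703 to 9793180 and 11483427 to 12640098, 2 of 8 (25%) and 1 of 8 (12.5%) members were called lower. The medians in these 5 clusters were -0.36, -0.38, -0.49, -0.02 and -0.19, in the order given. The cluster at 36182276 to 37817300 held 6 members, of which 1 (16.7%) was called lower and 1 higher, with a median of -0.38. The cluster at 43525497 to 45076478 held 7 members, of which 1 (14.3%) was called lower and 1 higher, with a median of -0.20. Each of the remaining clusters held at most 2 members, and some held none.

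The 3 largest called falls on chromosome 19 were those of ZNF440, ZNF160 and ZNF776. ZNF776, a KRAB gene at 57746815 to 57758148 on the plus strand, had 8.01, 7.37, 8.46 and 6.69 TPM with DMSO and 4.20, 3.50, 2.11 and 2.56 TPM with EB, without overlap (log2 fold change -1.10 ± 0.17 SE, limma adjusted p = 0.0014). The 3 largest rises there were those of ZNF787, ZNF544 and ZNF585A.

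ZNF585A and its tandem neighbour ZNF585B moved in opposite directions. They lie side by side on the minus strand of chromosome 19, at 37106734 to 37172741 and 37181579 to 37218153, and each encodes a KRAB protein of 769 residues with 21 fingers. ZNF585A had 7.89, 7.84, 8.72 and 9.48 TPM with DMSO and 10.6, 13.5, 13.3 and 16.7 TPM with EB, a log2 fold change of 0.60 ± 0.15 (SE; limma adjusted p = 0.011). ZNF585B, singled out after its values were seen, had 8.07, 7.55, 8.45 and 7.49 TPM with DMSO and 4.31, 5.51, 3.60 and 3.88 TPM with EB, a log2 fold change of -0.75 ± 0.14 (SE; limma adjusted p = 0.0026). The pair was level with DMSO, and with EB every library had more ZNF585A than ZNF585B. Their transcripts share 10.5% and 14.6% of their 75-base stretches, so part of their reads could be assigned to either gene. The rise of ZNF585A missed the threshold for nuclear genes alone (0.44, limma adjusted p = 0.078).

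**Figure D4:**
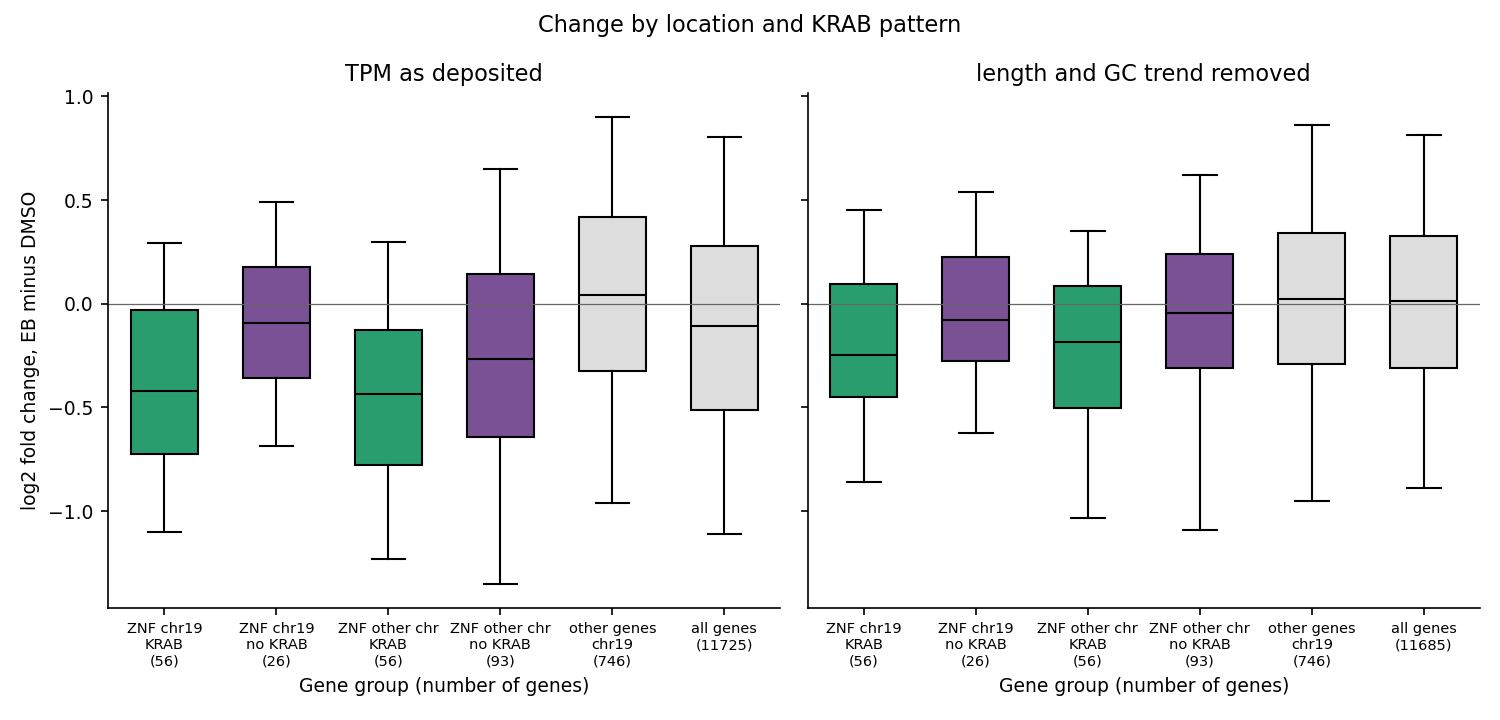
Log2 fold change (EB minus DMSO) of expressed ZNF genes by chromosome and KRAB pattern, beside other genes of chromosome 19 and all genes tested, from TPM as deposited (left) and with the joint length and GC trend taken out (right). Boxes span the quartiles with the median as a line, whiskers run from the 5th to the 95th percentile, and the number of genes stands under each box; in both panels the 2 boxes with a KRAB pattern have the lowest medians.

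Members with a KRAB pattern had lower medians than members without it, on chromosome 19 and elsewhere. The pattern, a match in protein sequence, was found in the translated canonical transcript of 112 members. A sequence pattern can miss a box, so the members without it may include KRAB genes. Of these, 43 (38.4%) were called lower and 2 (1.79%), ZNF544 and ZNF585A, were called higher, with a median log2 fold change of -0.42, where all genes had 25.1% lower and 15.2% higher. Of the 119 members without the pattern, 37 (31.1%) were called lower and 13 (10.9%) higher, with a median of -0.22. On chromosome 19 the medians were -0.42 over 56 KRAB members and -0.09 over 26 others, and on other chromosomes -0.43 over 56 KRAB members and -0.27 over 93 others. With the length and GC trend removed, the medians were -0.20 for KRAB members and -0.05 for the others, and 25% and 23.5% were called lower, against 21.8% of all genes. A SCAN pattern was found in 14 members, of which 3 (21.4%, below the share of all genes) were called lower and 0 higher.

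The number of fingers varied from 0 to 36 with a median of 9. The 33 members with at most 3 matches to the finger pattern had 7 (21.2%) called lower and 5 (15.2%) higher, near the 25.1% and 15.2% of all genes, with a median log2 fold change of -0.06. They include proteins that are not typical DNA-binding arrays, such as ZNF207, ZNF593, ZNF622 and ZNF511. The medians were -0.39 over 70 members with 4 to 8 fingers, -0.33 over 76 with 9 to 13 and -0.40 over 52 with 14 or more, where 19 were called lower and 1, ZNF585A, higher. Spearman's correlation of finger number with the log2 fold change was -0.16 across the 231 members. Only 4 members, ZNF862, ZNF839, ZNF503 and ZNF330, had no match to the pattern.

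The corepressors on which KRAB proteins act were described from a list of 35 genes, all of them tested. Of these, 12 (34.3%) were called lower and 2 (5.71%) higher, with a median log2 fold change of -0.21. All genes tested had 25.1% lower and 15.2% higher. Non-ZNF genes of the length class that holds the list's median length (5064 nucleotides) had 34.5% lower and 6.07% higher, with a median of -0.30. The list's lengths ran from 1859 to 11546 nucleotides, so that class matches only part of it, and the part of length was not tested. TRIM28, the corepressor that binds the KRAB box, was abundant in all libraries, with 439, 396, 413 and 257 TPM with DMSO and 454, 424, 440.3 and 369 TPM with EB. Its groups overlapped, and it was not called (log2 fold change 0.19 ± 0.18 SE, limma adjusted p = 0.42).

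SETDB1, which methylates lysine 9 of histone H3, was called lower, with 28.9, 27.1, 32.1 and 17.7 TPM with DMSO and 18.4, 17.7, 11.6 and 13.5 TPM with EB (log2 fold change -0.74, limma adjusted p = 0.019). ATF7IP, the partner that stabilizes SETDB1, fell from 45.4 ± 4.595 to 16.1 ± 3.88 TPM (SD, n = 4; log2 fold change -1.47). The chromatin remodelers ATRX and SMARCAD1 had log2 fold changes of -1.21 and -1.06. TASOR of the HUSH silencing complex had -1.19 and the DNA methyltransferase DNMT3B had -0.80. The groups overlapped for SETDB1 and DNMT3B. The transcripts of ATF7IP, ATRX and TASOR (8823, 11165 and 8177 nucleotides) belong to the longest class, where 45.9% of other genes were called lower. MBD2, which binds methylated DNA, was called higher at 1.65, but its DMSO libraries ranged from 0.135 to 4.84 TPM and its EB libraries from 7.74 to 12.1 TPM.

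Other zinc finger families were chosen by the same DMSO minimum and read against all genes tested, of which 25.1% fell and 15.2% rose. Of 23 ZBTB genes, 10 were called lower and 1 higher, and of 9 ZFP genes, 5 and 0. The counts were 3 and 0 of 10 ZSCAN genes, 1 and 0 of 3 ZKSCAN genes, 3 and 1 of 7 KLF genes and 4 and 0 of 6 SP genes. Their median log2 fold changes ran from -0.66 for ZFP to -0.13 for ZSCAN, and the value of -0.31 for ZNF lay inside this range.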

How the data were processed

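The authors deposited 1 table of TPM for 20263 genes in 8 libraries, made in CLC Genomics Workbench, with HISAT2 and StringTie also named; the sources name both a mouse and a human genome. The identifiers are human, and 20148 matched GENCODE release 44 on hg38, which gave positions, transcript lengths and translated proteins. TPM were used as deposited. The 4 EB and 4 DMSO libraries were compared with limma 3.58.1 (R 4.3.3; lmFit and eBayes, no trend, no block) on log2(TPM + 1), keeping genes that reached 1 TPM in 4 or more libraries, with Benjamini-Hochberg adjustment over all 11725. The members and lists were chosen with earlier results of these data known.

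Fingers were counted as C, 2 to 4 residues, C, 12 residues, H, 3 to 5 residues, H. KRAB boxes, within the first 450 residues, and SCAN boxes were sought as sequence patterns that were not checked against annotated domains. Genes named are the 12 largest falls and 8 largest rises called, the 3 of each on chromosome 19, the 5 highest DMSO means, the 3 genes on either side of the minimum, the 3 longest and 3 shortest, and TRIM28, SETDB1 and 6 other corepressors. Upstream sequences are from RefSeq (GRCh38.p14). The alternatives were other pseudocounts, filters, scalings, minimums and thresholds, an intensity trend, removal of the length and GC trend (loess, span 0.5), a replicate block, each library left out and, added after seeing the data, members without shared 75-base stretches (over 10%). Tables were handled with Python 3.11.15, pandas 2.3.3 and numpy 2.4.6, and plots drawn with matplotlib 3.10.9. On simulated data of this comparison over 11725 genes, 70% of genes changed 2-fold and 97% of those changed 4-fold were found, and 8 of 11525 unchanged genes were called. The simulated noise was independent between genes, with no shift of a whole library and no trend on length. The simulation therefore does not measure false calls that such shifts or trends could bring.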

Additional observations from a re-analysis of the deposited data

Results flagged for a closer look

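In 5 of 70 groups of 4 libraries checked over the named genes, 1 library lay far from the other 3, where chance gives about 1 in 20. In 4 of the 5 it was DMSO replicate 4, the library with the largest mitochondrial share. ZNF440 had 5.23 TPM there against 8.35 to 8.65 TPM in the other DMSO libraries. ZNF862 had 4.64 TPM against 10.97 to 11.4 TPM. ZNF512B had 13.5 TPM against 31.2 to 33.1 TPM. ZNF358 had 57.2 TPM against 104 to 117 TPM. ZNF511 had 51.9 TPM in EB replicate 4 against 57.8 to 59.1 TPM in the other EB libraries. What set these libraries apart was not tested.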

How the results depend on the processing

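The median log2 fold change of the members stayed negative under every alternative run, from -0.49 (nuclear genes only) to -0.087 (quantile normalization). Calls were 80 lower and 15 higher. The count of lower calls became 43 of 186 (23.1%) when chosen by EB level. It became 124 of 374 (33.2%) at a DMSO minimum of 2 TPM and 39 of 124 (31.5%) at 10 TPM. All genes tested, without such a minimum, had 25.1% called lower. Higher calls became 29 with median-ratio scaling (12.6%, against 25.9% of all genes) and 40 with quantile normalization (17.3%, against 23.8%). They became 26 with the length and GC trend removed (11.3%, against 24.1%) and 9 without members that share sequence (4.71%, against 15.2%). Leaving out 1 library gave 51 to 110 lower calls (22.1% to 47.6%) and 10 to 17 higher calls (4.33% to 7.36%). Over all genes, these shares ran from 17.7% to 37.0% and from 10.8% to 15.6%.

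Past the study's thresholds, 5 members were lower and 0 higher. This became 8 and 1 with a pseudocount of 0.1 (3.46% of members lower, 3.31% of all genes). It became 8 lower for nuclear genes only (3.46% and 2.76%) and 2 lower with the length and GC trend removed (0.866% and 0.95%). Chosen by EB level, 1 was lower (0.538%), and at a minimum of 10 TPM 3 were (2.42%), against 1.54% of all genes. The higher count became 1 with median-ratio scaling or quantile normalization (0.433%, against 0.716% and 0.878% of all genes). With 1 library left out, 5 to 8 were lower (2.16% to 3.46%, against 1.26% to 2.54% of all genes). In those fits 0 to 1 were higher (at most 0.433%, against 0.452% to 0.631%). Above an absolute log2 fold change of 1, 23 were lower (9.96%, against 6.65%) and 1 higher (0.433%, against 2.5%).

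Of 557 values of the 33 named genes under alternatives, 520 kept direction and side of the threshold. Direction reversed for ZNF500 (0.046 quantile, 0.11 length and GC), ZNF287 (0.10, 0.24), ZNF562 (0.15, 0.42), ZNF358 (0.10 median-ratio, and -0.25 to 0.089 with 1 library left out), ZNF580 (-0.062 quantile, -0.13 length and GC, -0.094 nuclear) and ZNF768 (-0.021 nuclear). Of these values, ZNF562 with the length and GC trend removed was the only one called (limma adjusted p = 0.014). The causes were not tested.

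Libraries with the same number correlated at 0.18, 0.05, -0.09 and 0.28, and not every library correlated best with its own number, so the numbers were not taken as pairs. With the replicate number as a block, 92 members (39.8%, against 30.1% of all genes) were lower and 20 (8.66%, against 19%) higher. The members' median stayed at -0.31. With no read counts the depth, and so what it limits, is unknown.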
